A study of Mus musculus with 18 samples.

Results

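The interferon-inducible p200 family (also called PYHIN or HIN-200 proteins) was followed as 9 genes, Ifi202b, Ifi203, Ifi204, Ifi205, Ifi207, Ifi209, Ifi211, Ifi213 and Aim2. They were chosen by symbol, and all 9 were found among the 55291 genes of the table. Mouse tumours grown under the skin from 3 cell lines were profiled by bulk RNA sequencing in 18 libraries, 3 for each of 6 groups. CT26 derives from a BALB/c colon tumour, CT26-NY-ESO-1 (CT26NYESO1) is by its name a CT26 line with the human cancer-testis antigen NY-ESO-1, and LL/2 (LL2), or Lewis lung carcinoma, arose in a C57BL mouse. Each line gave 3 Ctrl libraries and 3 OK432 libraries. OK-432, a killed preparation of Streptococcus pyogenes used to stimulate immunity, was given into the tumour for 24 hours, and all tumours were taken on day 14.

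The labels name BALB/cJ and C57BL/6J as the hosts without saying which strain carried which line, so the pairing of strain and line used here is the known origin of the lines. Host strain and tumour line therefore cannot be told apart in any comparison with LL2. No source used here states the age of the mice, the injection of the controls, whether CT26-NY-ESO-1 is a single clone, or whether replicates are separate animals. Every p-value therefore refers to the spread among these libraries, some of which may be technical. Levels are in TPM, which is scaled for gene length and for the library total. TPM keeps no read depth, so the number of reads behind a value is unknown. Whole tumours hold cancer, immune and stromal cells, and fewer cells of a type and less RNA per cell cannot be told apart.

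Proteins of this family pair a DNA-binding HIN domain with, in most members, a pyrin domain that recruits signalling partners. Aim2 binds double-stranded DNA in the cytosol and assembles an inflammasome with the adaptor ASC (Pycard), which activates caspase-1 and releases interleukin-1 beta. Ifi204, often taken as the mouse counterpart of human IFI16, senses DNA and signals through STING towards type I interferon. Ifi202b lacks the pyrin domain and is known as an inhibitor of AIM2 signalling, and Ifi205 is known to regulate the gene of the adaptor ASC. Many family genes are themselves induced by interferon in macrophages and other cells, and Ifi202b is known to be silent in most tissues of C57BL/6 mice.

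The 9 genes form 1 cluster on chromosome 1. In the GENCODE M21 annotation of the mm10 build it ran from 173350879 to 174031810, a span of 681 kb, with Aim2 at one end (173350879 to 173466040) and Ifi205 at the other (174011998 to 174031810). All 13 protein-coding genes that lie inside the span belonged to the family, the other genes being Ifi206, Ifi208, Ifi214 and Mndal. Ifi204 lay at 173747293 to 173766943 and Ifi202b at 173962568 to 173982744. Of the 9 members, 7 are on the minus strand and 2, Ifi209 and Aim2, on the plus strand.

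Promoter sequences from RefSeq on GRCm38.p6 were matched for 8 of the 9 members. The 250 bases before each start were searched on both strands for the core of the interferon-stimulated response element, GAAANNGAAA, and for the gamma-activated site, TTCNNNGAA. The first is known from promoters of genes induced by type I interferon and the second from promoters of genes induced by interferon-gamma. The response element core was found in 5 of the 8 members (Ifi203, Ifi205, Ifi207, Ifi211 and Ifi213) and in all 4 of the other cluster genes with a promoter entry. It was found in 2.98% of all 32851 promoter entries of the same length. That share is per entry, while a gene with several entries (Ifi203 and Mndal) was counted if any of them held the core. The stretches are shown because these members carried the response element core and also varied together across the pooled libraries, as described below. Ifi209, which held no full core, varied with them too, and a link between core and variation was not tested. Capitals mark the match, and 20 bases are given on each side in the direction of transcription.
Ifi203: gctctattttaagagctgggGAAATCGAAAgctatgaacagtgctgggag
Ifi205: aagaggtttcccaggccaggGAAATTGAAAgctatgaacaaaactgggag
Ifi207: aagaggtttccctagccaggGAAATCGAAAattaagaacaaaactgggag
Ifi211: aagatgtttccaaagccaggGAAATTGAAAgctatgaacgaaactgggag
Ifi213: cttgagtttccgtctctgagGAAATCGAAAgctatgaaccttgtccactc
These stretches lie on the minus strand. They are chr1:173942498-173942547 for Ifi203 (the second of its annotated starts), chr1:174031860-174031909 for Ifi205 and chr1:173741821-173741870 for Ifi207. Those of Ifi211 and Ifi213 are chr1:173913054-173913103 and chr1:173599316-173599365. The match began between 35 bases (Ifi203) and 134 bases (Ifi205) before the start. The stretch printed for Ifi203 occurs letter for letter in the promoter of Mndal, and that of Ifi213 in the promoter of Ifi208.

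The 3 members with a promoter entry but no full core differed among themselves. Ifi209 held 4 copies of the core with 1 substitution each, beginning 177, 93, 79 and 43 bases before its start. The 1 printed below, G1T counted from the 5′ end of the core, is the copy at 79 bases, in a stretch at chr1:173630760-173630809 on the plus strand. Aim2 also held 1 such copy, 51 bases before its start. A match with up to 1 mismatch was found in 31.4% of all promoters. Ifi202b held the gamma-activated site and no response element core, and it was the 1 member with that site, which occurred in 7.02% of all promoters. The site began 148 bases before its start, in a stretch at chr1:173982964-173983012 on the minus strand. No full match to either motif was in the searched window of Aim2. The 2 lines below are printed because these promoters differ from those of the 5 members above.
Ifi209: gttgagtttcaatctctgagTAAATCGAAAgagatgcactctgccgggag
Ifi202b: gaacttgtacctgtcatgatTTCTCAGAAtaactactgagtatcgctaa
None of these genes held full matches to both motifs, so no overlap between the motifs could arise. A match describes the letters in the window and does not show that a factor binds there.

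Because these genes arose as near copies, reads can be split between them. In the reference transcripts, 72.8% of the 50-base words of Ifi211 also occurred in another gene, chiefly Ifi205 (44.7%) and Ifi204 (30.1%). The share was 33.7% for Ifi209, nearly all of it with Ifi214, 20% for Ifi204, 18.6% for Ifi205, 15.6% for Ifi213, 12.4% for Ifi203 and 7.29% for Ifi207. Aim2 shared 0.742% and Ifi202b shared no word. The annotation of Mndal overlaps exons of Ifi203 and spans Ifi211. The levels of Ifi211 and Ifi209, and the division between Ifi203 and Mndal, are therefore uncertain. The levels of Ifi202b and Aim2 are little exposed to sharing within this reference. Words were counted in the reference alone, so differences in sequence or gene copies between mouse strains are not covered. Whether such differences moved the levels of any member, or their ratios, between tumour types was not tested.

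Ifi202b, the pyrin-less inhibitor, was the most abundant member in every library of CT26 and CT26NYESO1 and was listed at 0 in LL2. CT26 controls gave 225, 238 and 212 TPM, and CT26NYESO1 controls gave 187, 154 and 168 TPM. With OK-432 the values were 173, 193 and 168 TPM in CT26 and 196, 145 and 158 TPM in CT26NYESO1. All 3 LL2 controls were listed at 0, as were 2 of the 3 treated LL2 libraries, and replicate 1 of the treated group gave 0.0685 TPM. Ifi202b made up 31.2% to 35.8% of the summed TPM of the 9 members in the CT26 and CT26NYESO1 libraries. No fold is given against LL2, since the table holds no count, and an exact 0 can also be a failed estimate. Ifi202b reached the filter of 1 TPM in 12 libraries, none of them LL2, so it had to differ from LL2 in any test and that contrast is a description.

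Ifi213 had the opposite order. LL2 controls gave 4.43, 14.2 and 8.51 TPM and treated LL2 tumours gave 2.45, 5.68 and 2.75 TPM. CT26 controls gave 0.594, 1.39 and 0.72 TPM, and CT26NYESO1 controls gave 0.62, 0.165 and 0.16 TPM. Every LL2 library lay above every CT26 and CT26NYESO1 library. Ifi213 reached 1 TPM in all 6 LL2 libraries and in 1 other library, so this contrast is also a description of a gene that entered the tests through LL2.

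Aim2, the inflammasome sensor, was the steadiest member within a tumour type by the ratio of its highest to its lowest library. It measured 55.5, 58.2 and 59.3 TPM in CT26 controls, 39.0, 36.4 and 32.9 TPM in CT26NYESO1 controls, and 33.5, 32.3 and 30.1 TPM in LL2 controls. Treated tumours gave 55.6, 53.8 and 62.4 TPM in CT26, 36.8, 35.7 and 32.0 TPM in CT26NYESO1, and 33.9, 30.5 and 35.4 TPM in LL2. All 6 CT26 libraries stood above all 12 others, and the 4 groups of CT26NYESO1 and LL2 overlapped their neighbours in the order. That ratio was at most 1.22 for Aim2, and 2.62 to 5.81 in LL2 for the 7 other members detected there.

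Ifi204 and Ifi203 were high in both CT26 lines and lower in LL2. Ifi204, the STING-linked sensor, gave 156, 175 and 143 TPM in CT26 controls, 146, 107 and 123 TPM in CT26NYESO1 controls, and 27.2, 68.6 and 49.9 TPM in LL2 controls. Ifi203 gave 102, 116 and 91.0 TPM, 95.8, 85.9 and 94.7 TPM, and 22.7, 48.6 and 39.7 TPM in the same groups. For both genes every LL2 library lay below every library of the other lines, treated or not. Neighbouring groups of the CT26 and CT26NYESO1 lines overlapped, except that Ifi204 was higher in all CT26 controls than in all treated CT26 tumours. Ifi203 was also higher in all CT26 controls than in all treated CT26 tumours, though these groups were not neighbours in its order.

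Ifi207 differed between the lines in another order. CT26 controls gave 47.1, 46.6 and 38.8 TPM, CT26NYESO1 controls gave 21.1, 18.1 and 19.5 TPM, and LL2 controls gave 11.7, 21.9 and 13.9 TPM. CT26 stood above both other lines, whose groups overlapped.

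Ifi211, Ifi205 and Ifi209 did not follow the split between CT26 and LL2. Ifi211 gave 75.6, 86.2 and 68.9 TPM in CT26 controls and 39.4, 87.1 and 65.1 TPM in LL2 controls, and every neighbouring pair of groups in its order overlapped. Ifi205 was highest on average in LL2 controls, at 23.8 ± 10.6 TPM (SD, n = 3), against 18.6 ± 5.56 TPM in CT26 controls and 11.0 ± 1.11 TPM in CT26NYESO1 controls. Ifi209 gave 13.9 ± 6.32, 13.1 ± 1.93 and 7.16 ± 1.17 TPM in the same groups. The wide SDs of the LL2 controls came from the same libraries for these genes, with replicate 1 low and replicate 2 high.

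**Figure D1:**
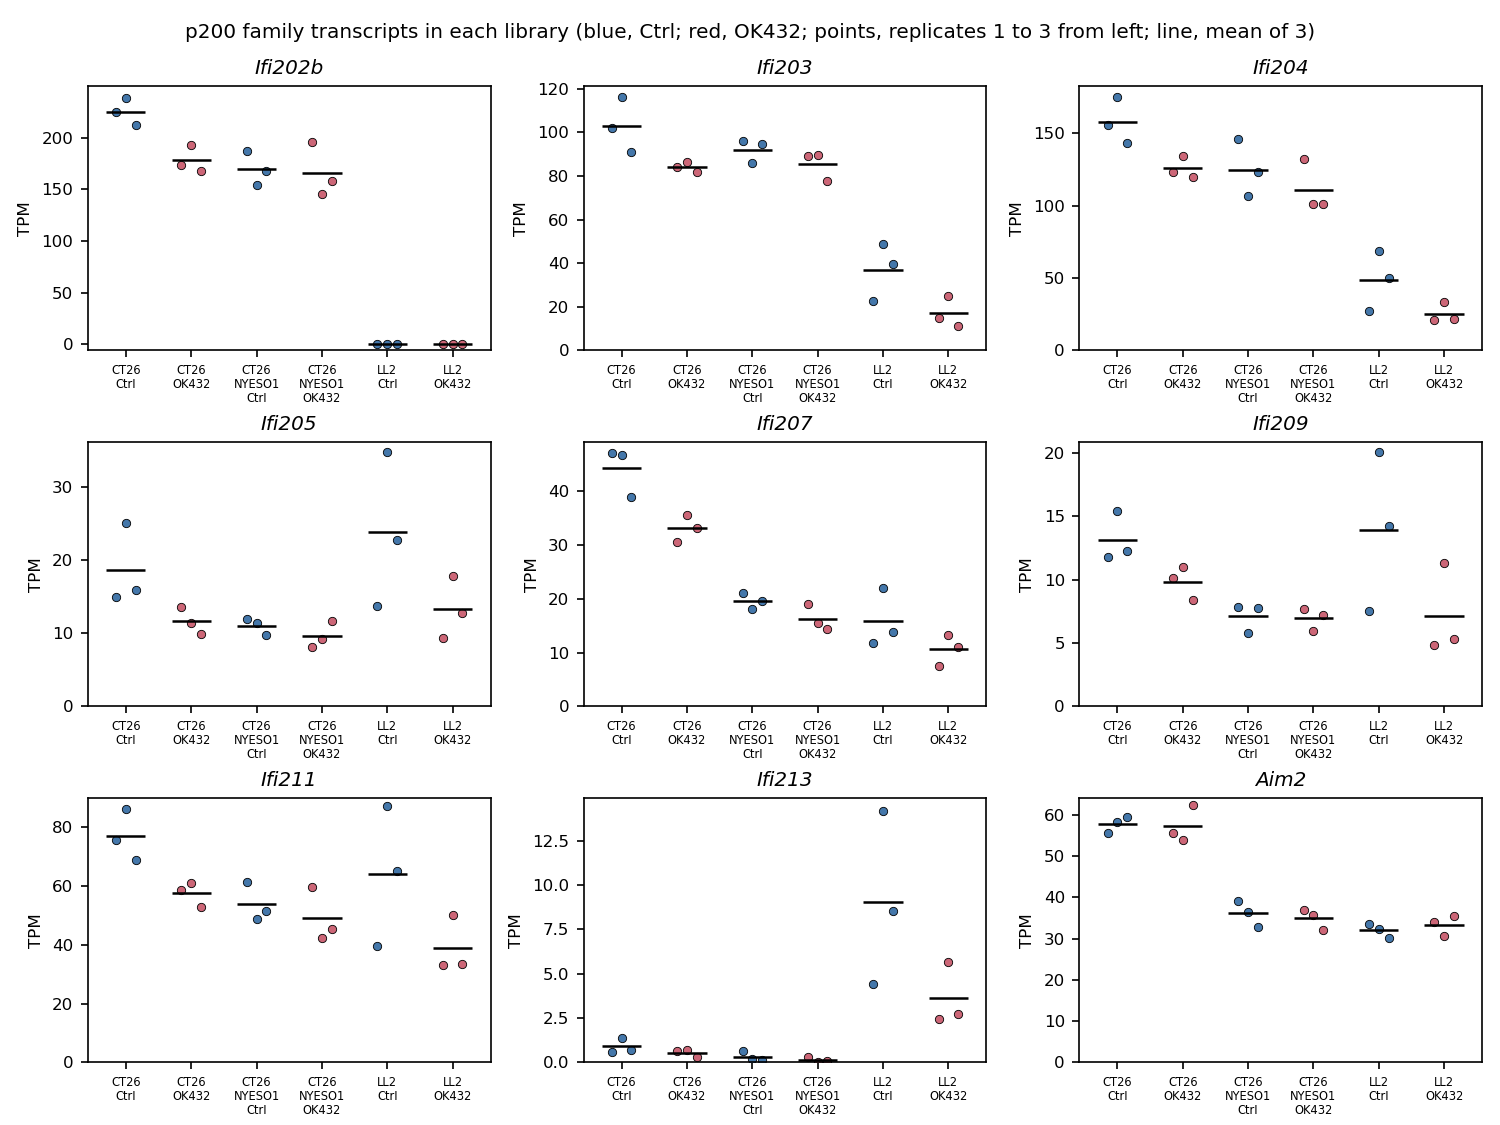
TPM of each of the 9 members (vertical axes, linear, separate for each gene) in the 6 groups. Points are single libraries and lines are means of 3. Ifi202b is listed at 0 in 5 of the 6 LL2 libraries, Ifi213 is highest in LL2, and Aim2 is level between Ctrl and OK432 in each line.

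The makeup of the family differed between the lines. In CT26 and CT26NYESO1 the median shares of the summed TPM were 32.1% and 33.1% for Ifi202b and 22.5% and 23.4% for Ifi204. In LL2 the largest median share was that of Ifi211 (26.4%), followed by Aim2 (18.6%), Ifi204 (17.5%) and Ifi203 (13.8%). The summed level was 642 to 762 TPM in CT26 controls, 468 to 570 TPM in CT26NYESO1 controls and 160 to 328 TPM in LL2 controls.

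Untreated tumours were compared to ask which members differ between the tumour types without OK-432. Differences below are on the log2(TPM + 1) scale, which understates changes of low genes, and adjusted p-values are limma's with Benjamini-Hochberg adjustment over 16816 tested genes. These tumour types differed across the transcriptome, so the share of all genes called is given beside each count.

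In CT26NYESO1 controls, 5 of the 9 members were lower than in CT26 controls and 0 were higher, beside 43.9% of all tested genes called lower and 21.1% called higher. Ifi207 was lower by a log2 difference of -1.13 (SE 0.195, adjusted p = 9.32e-05) and Aim2 by -0.66 (SE 0.0782, adjusted p = 1.18e-06). Ifi202b gave -0.41 (adjusted p = 0.00121), Ifi209 -0.80 (adjusted p = 0.0265) and Ifi205 -0.67 (adjusted p = 0.0499). Ifi203 (-0.15), Ifi204 (-0.34), Ifi211 (-0.51) and Ifi213 (-0.53) were not called. In a fit of the compared groups alone Ifi204 (adjusted p = 0.0339) and Ifi211 (adjusted p = 0.00271) were also called lower, and with a pseudocount of 0.1 Ifi213 was (-1.36, adjusted p = 0.0347). The median of all tested genes was -0.18 in this comparison and moved to 0.00 when the libraries were rescaled by the median of ratios. Rescaled in that way, 49.6% of all calls were higher in place of 32.5%, and 2 members, Ifi207 and Aim2, kept their call. With quantile normalization 51.8% of calls were higher and 3 members were called lower. Under rescaling Ifi202b gave -0.19 (adjusted p = 0.0829), Ifi209 -0.60 (adjusted p = 0.0878) and Ifi205 -0.47 (adjusted p = 0.164). Leaving out 1 library ended the call of Ifi205 in 13 of 18 refits. The call of Ifi209 was lost without CT26 control replicate 2 (-0.69, adjusted p = 0.0894) and without CT26NYESO1 control replicate 2 (-0.67, adjusted p = 0.094). Ifi211 was called without LL2 control replicate 1 (adjusted p = 0.0142) or 2 (adjusted p = 0.0296), which enter through the shared spread. Under both rescalings Ifi203 gave a difference above 0 (0.06 and 0.05).

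In LL2 controls against CT26 controls, 5 members were called lower (39.7% of all genes) and 1 higher (29.1%). Leaving out Ifi202b and Ifi213, which entered the test through 1 side, 4 of the other 7 were lower and 0 higher. Ifi204 was lower by -1.77 (SE 0.262, adjusted p = 2.92e-05), Ifi203 by -1.51 (SE 0.253, adjusted p = 8.95e-05), Ifi207 by -1.46 (SE 0.195, adjusted p = 5.51e-06) and Aim2 by -0.83 (SE 0.0782, adjusted p = 6.3e-08). Ifi205 (0.28), Ifi209 (-0.01) and Ifi211 (-0.33) were not called, and Ifi209 changed sign under rescaling (0.09) and quantile normalization (0.22). The median of all genes was -0.08 here, and quantile normalization moved the share of calls that were higher from 42.2% to 55.3%. Without LL2 control replicate 1, Ifi205 was also called higher (0.61, adjusted p = 0.0481), and without LL2 control replicate 2 Ifi211 was called lower (-0.59, adjusted p = 0.0256).

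In LL2 controls against CT26NYESO1 controls, 3 members were lower (27.5% of all genes) and 3 higher (38.8%). Among the 7 without Ifi202b and Ifi213, 2 were lower and 2 higher. Ifi204 (-1.43, SE 0.262, adjusted p = 0.000232) and Ifi203 (-1.36, SE 0.253, adjusted p = 0.000264) were lower. Ifi205 (0.95, SE 0.285, adjusted p = 0.00828) and Ifi209 (0.79, SE 0.293, adjusted p = 0.0275) were higher. The call of Ifi209 was lost without LL2 control replicate 2 (0.49, adjusted p = 0.148), without LL2 control replicate 3 (0.73, adjusted p = 0.0766), without CT26NYESO1 control replicate 2 (0.66, adjusted p = 0.0959) and after rescaling (0.68, adjusted p = 0.0501). It was also lost with no filter (adjusted p = 0.0559) and in a fit of the compared groups alone (adjusted p = 0.0783). The values of Ifi209 overlapped between these control groups. Aim2, not called here (-0.17, adjusted p = 0.0692), was called lower after rescaling (-0.28, adjusted p = 0.00248) and without CT26NYESO1 control replicate 3 (-0.23, adjusted p = 0.0231). Ifi207 was called lower without LL2 control replicate 2 (-0.58, adjusted p = 0.00818) and Ifi211 higher without LL2 control replicate 1 (0.49, adjusted p = 0.0333).

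**Figure D2:**
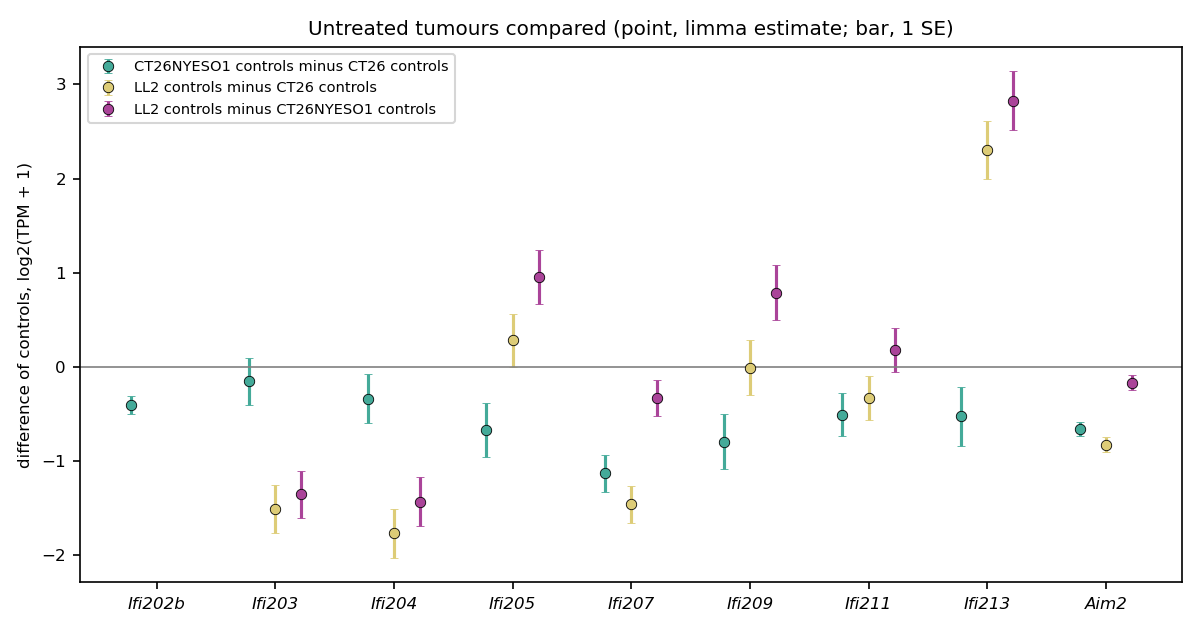
Differences between untreated tumour types in log2(TPM + 1) (vertical axis) for each member (horizontal axis). Points are limma estimates and bars are 1 SE; Ifi202b is drawn only between CT26NYESO1 and CT26 because it is listed at 0 in LL2 controls. Ifi204 and Ifi203 lie below 0 and Ifi213 above 0 in both LL2 comparisons.

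The cell makeup also moved with these contrasts. The 5 monocyte markers summed to 1150 to 1210 TPM in CT26 controls, 330 to 500 TPM in CT26NYESO1 controls and 123 to 259 TPM in LL2 controls. The 9 macrophage markers summed to 2810 to 3180, 2460 to 3330 and 1400 to 1650 TPM, and the 6 fibroblast markers to 3110 to 4540, 1050 to 1200 and 910 to 1140 TPM. Single markers of these lists did not all follow the sums. In LL2 against CT26 controls, 2 fibroblast markers were called higher and 4 lower. In the same contrast 1 monocyte marker was higher and 3 lower, and 1 macrophage marker higher and 8 lower. Of all genes, 29.1% were called higher there and 39.7% lower. Against CT26NYESO1 controls, 3 fibroblast markers were called higher in LL2 (38.8% of all genes) and 3 lower (27.5%). The 7 T cell markers summed to 13.6 to 20.6 TPM in CT26, 22.5 to 58.8 TPM in CT26NYESO1 and 4.4 to 14.2 TPM in LL2 controls. Of these 7, 5 were called higher in CT26NYESO1 than in CT26, beside 21.1% of all genes. The 4 endothelial markers summed to 258 to 302, 44.5 to 60.9 and 54.6 to 85 TPM. All 4 were called lower in CT26NYESO1 (43.9% of all genes) and in LL2 (39.7%) than in CT26. No marker of these 5 lists was at 0 in a whole group. Epithelial markers (Krt8, Krt18, Krt19, Epcam and Cdh1), which a carcinoma would be looked for by, summed to 374 to 568 TPM in LL2 controls, 10.3 to 15.6 TPM in CT26NYESO1 controls and 1.29 to 1.42 TPM in CT26 controls, where 1 of the 5 was at 0 in all 3 libraries. Interferon-stimulated gene lists also differed between controls. In LL2 against CT26, 19 of 19 type I and 14 of 15 interferon-gamma-induced genes were called lower (39.7% of all genes). Against CT26NYESO1, 8 and 15 were lower in LL2 (27.5%). In CT26NYESO1 against CT26, 12 type I genes were lower (43.9%), and 2 interferon-gamma-induced genes were higher (21.1%) and 0 lower. The part of these cells and genes in the differences of the p200 genes was not tested.

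The other family genes of the cluster were compared in the same way. Of 11 such symbols, 5 were in the table and all 5 were tested. Mndal gave 124, 132 and 111 TPM in CT26 controls, 123, 103 and 111 TPM in CT26NYESO1 controls and 26.8, 55.1 and 42.3 TPM in LL2 controls, the order seen for the overlapping Ifi203. Ifi214 averaged 8.85 TPM in CT26, 1.98 TPM in CT26NYESO1 and 0.431 TPM in LL2 controls. Ifi208 was lower in CT26NYESO1 than in CT26 controls (-1.38, adjusted p = 0.000515) and Ifi206 was higher in LL2 than in CT26NYESO1 controls (1.71, adjusted p = 0.000206). Of the 5, 4 were called lower in CT26NYESO1 than in CT26 controls (43.9% of all genes) and 4 in LL2 than in CT26 controls (39.7%). In LL2 against CT26NYESO1 controls 3 were lower (27.5%) and Ifi206 was higher (38.8%).

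OK-432 was then compared with control within each line, to ask whether 24 hours of a bacterial preparation changed DNA-sensor transcripts. No member was called in any line. In CT26 all 9 differences were below 0, from -0.61 (Ifi205) to -0.01 (Aim2), with a median of -0.34 beside 0.00 for all tested genes. Adjusted p-values lay between 0.872 and 1, and 0.0% of all genes were called in this line. Of the members, 1 (Ifi202b) had an unadjusted p under 0.05 with a value below 0, as had 1.94% of all genes.

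In CT26 the treated values lay below all control values for 7 of the 9 members, those other than Ifi213 and Aim2, while 5.1% of all genes were separated in that direction. Ifi202b gave a difference of -0.34 (SE 0.0947, adjusted p = 0.872), from 212 to 238 TPM in controls to 168 to 193 TPM in treated tumours. Its spread was estimated with the LL2 libraries at or near 0 included; in a fit of the CT26 groups alone the adjusted p was 0.405. Ifi207 went from 38.8 to 47.1 TPM in controls to 30.6, 35.5 and 33.1 TPM, and Ifi211 from 68.9 to 86.2 TPM to 58.4, 61.0 and 52.7 TPM. Ifi204 measured 123, 134 and 120 TPM, Ifi203 84.0, 86.4 and 81.6 TPM, Ifi209 10.1, 11.0 and 8.41 TPM, and Ifi205 13.6, 11.4 and 9.91 TPM after treatment. These genes share libraries and vary together, so their separation is not 7 independent observations.

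In CT26NYESO1 the differences were small. All 9 were below 0, from -0.26 (Ifi207) to -0.03 (Ifi209), with a median of -0.14 beside -0.02 for all tested genes. The treated and control values overlapped for all 9 members, while 9.84% of all genes were separated towards lower values, and 0.666% of genes were called in either direction. No member had an unadjusted p under 0.05, against 9.57% of all genes with such a p and a value below 0. Ifi204 measured 132, 101 and 101 TPM after treatment, and Ifi203 89.2, 89.8 and 77.7 TPM. The sum of the 9 members was 445 to 549 TPM, inside and just below the control range.

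In LL2 the differences were larger and the libraries more scattered. Ifi203 gave -1.07 (SE 0.253, adjusted p = 0.501) and Ifi213 -1.06 (SE 0.311, adjusted p = 0.669). Ifi209 (-0.86), Ifi204 (-0.84), Ifi205 (-0.75), Ifi211 (-0.66) and Ifi207 (-0.52) followed. Aim2 gave 0.05. These 7 members had an unadjusted p under 0.05, as had 2.95% of all genes with a value below 0, and 0 of the 9 were called, beside 0.0178% of all genes. Their SEs and p-values use 1 spread per gene shared by the 6 groups, so they do not measure the scatter of the LL2 libraries alone. For all 7 the treated and control groups overlapped, with 5.17% of all genes separated towards lower values.

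The overlap in LL2 came from particular libraries. Ifi204 measured 27.2, 68.6 and 49.9 TPM without OK-432 and 21, 33.7 and 21.8 TPM with it. Ifi203 measured 14.9, 25.1 and 11.4 TPM, Ifi205 9.33, 17.8 and 12.8 TPM, Ifi209 4.87, 11.3 and 5.28 TPM, and Ifi211 33.2, 50.1 and 33.4 TPM after treatment. Control replicate 1 was the lowest of the controls for 7 members, control replicate 2 the highest for 7, and treated replicate 2 the highest of the treated for 7. Without control replicate 1, Ifi203 (-1.38, adjusted p = 0.0367) and Ifi204 (-1.20, adjusted p = 0.039) were called lower. The interferon-stimulated gene list showed the same libraries apart, with sums of 479, 1270 and 925 TPM without OK-432 and 409, 677 and 328 TPM with it.

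**Figure D3:**
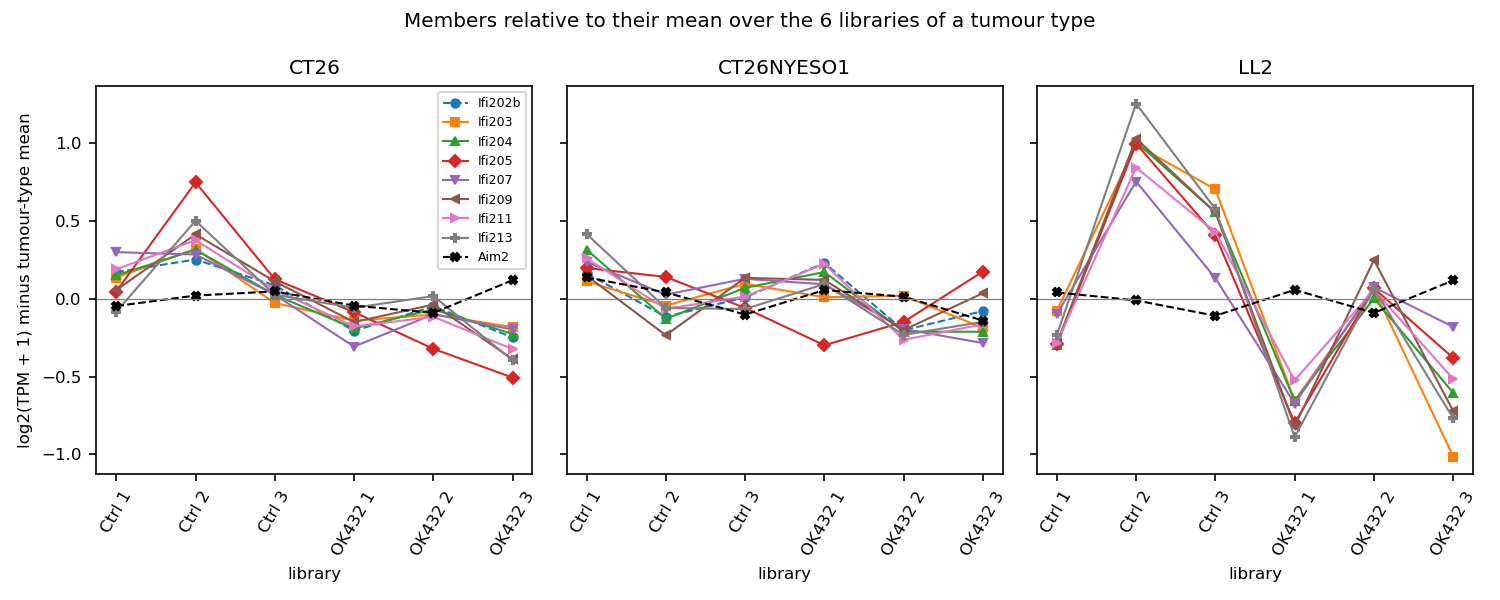
Each member's log2(TPM + 1) minus its mean over the 6 libraries of a tumour type (vertical axis) in each library (horizontal axis); lines join the points of a gene and replicates have no order. In LL2, 7 members are highest in control replicate 2, while Aim2 stays near 0; Ifi202b is left out of LL2.

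Averaged over the 3 lines with equal weight, all 9 differences were below 0, from -0.52 (Ifi213) to -0.003 (Aim2), with a median of -0.43 beside -0.01 for all tested genes. The 7 members Ifi203, Ifi204, Ifi205, Ifi207, Ifi209, Ifi211 and Ifi213 had an unadjusted p under 0.05, as had 5.94% of all genes with a value below 0. None was called (adjusted p from 0.283 to 0.992), beside 0.172% of all genes. Ifi207 gave -0.40 (SE 0.113, adjusted p = 0.283) and Ifi203 -0.49 (SE 0.146, adjusted p = 0.302). Without LL2 control replicate 1, Ifi204 was called (-0.57, adjusted p = 0.0467).

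Aim2 was the member with the narrowest interval. The 95% interval of its OK-432 difference was -0.18 to 0.15 in CT26, -0.21 to 0.12 in CT26NYESO1 and -0.11 to 0.22 in LL2. The average was -0.003 with an interval of -0.10 to 0.09, and its sign changed under rescaling (0.01). For Ifi203 the intervals were -0.83 to 0.26, -0.65 to 0.44 and -1.61 to -0.53, each for a single gene and not adjusted for the number of genes tested. All these intervals use 1 spread per gene, shared by the 6 groups. The LL2 interval of Ifi203 therefore does not measure the scatter of the LL2 libraries alone. Its SD was 13.2 TPM around a mean of 37.0 TPM in LL2 controls, and 5.44 TPM around 92.1 TPM in CT26NYESO1 controls.

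The effects were also compared between lines. No member's OK-432 effect was called different, beside 0.0% of all genes for CT26NYESO1 against CT26 and 0.00595% for each of the LL2 comparisons. Ifi203 gave an effect lower in LL2 than in CT26NYESO1 by -0.97 (SE 0.357, adjusted p = 0.445). Ifi202b gave an effect 0.30 higher in CT26NYESO1 than in CT26 (SE 0.134, adjusted p = 0.536). The larger values in LL2 were thus not shown to differ from those in the other lines.

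**Figure D4:**
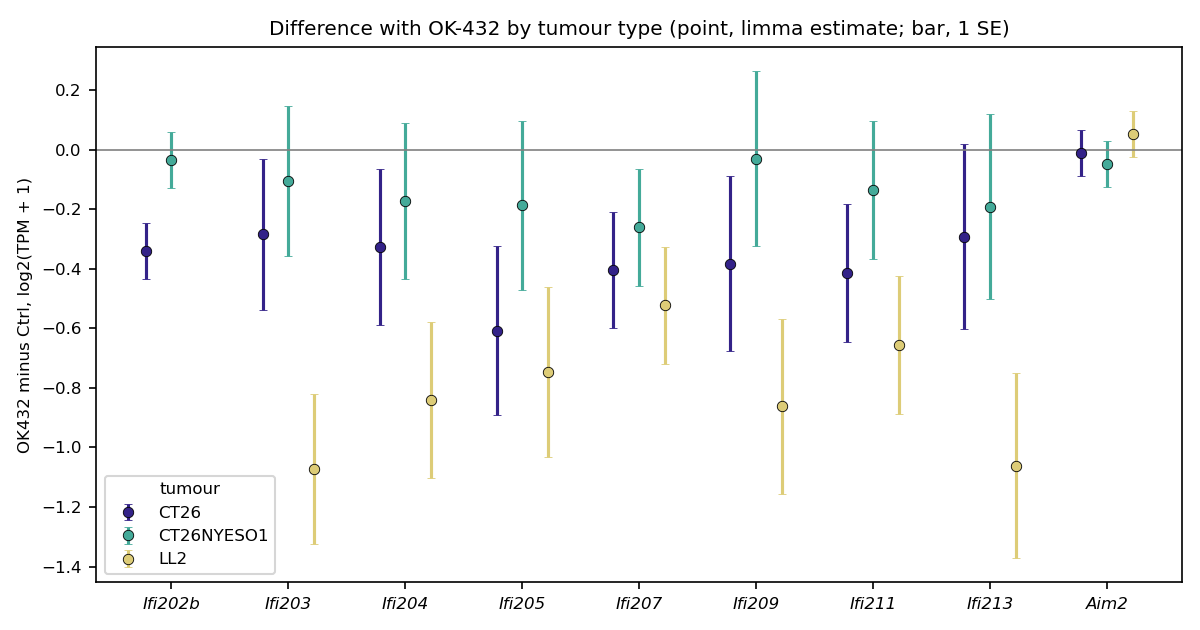
OK432 minus Ctrl in log2(TPM + 1) (vertical axis) for each member (horizontal axis) in the 3 tumour types. Points are limma estimates and bars are 1 SE; Ifi202b is not drawn for LL2. No member was called, and Aim2 lies between -0.05 and 0.05 in all 3.

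Many members varied together across the pooled libraries of the 3 tumour types. After the mean of each tumour type was subtracted, Pearson's r over the 18 libraries lay between 0.791 and 0.985 for the 21 pairs of Ifi203, Ifi204, Ifi205, Ifi207, Ifi209, Ifi211 and Ifi213. Ifi202b correlated with these 7 at 0.148 to 0.435, though its LL2 libraries add no variation. Ifi213 reached 1 TPM in 6 LL2 libraries and in 1 of the CT26 and CT26NYESO1 libraries, so those lines add little to its r. Aim2 correlated with the other 8 at -0.421 to 0.132. The points share libraries and treatment, related genes share reads, and the values are a description. For Ifi203, Ifi204, Ifi205, Ifi207, Ifi209 and Ifi211, TPM ranged 2.62-fold to 4.25-fold in LL2. It ranged 1.43-fold to 2.53-fold in CT26 and 1.23-fold to 1.47-fold in CT26NYESO1. Ifi213 ranged 5.81-fold, 4.89-fold and 18.1-fold in the same order. The pooled r can therefore rest largely on LL2, and it does not show that members varied together in each type. Values of r within single types are not given here. The promoter of Ifi204 was not analysed here.

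**Figure D5:**
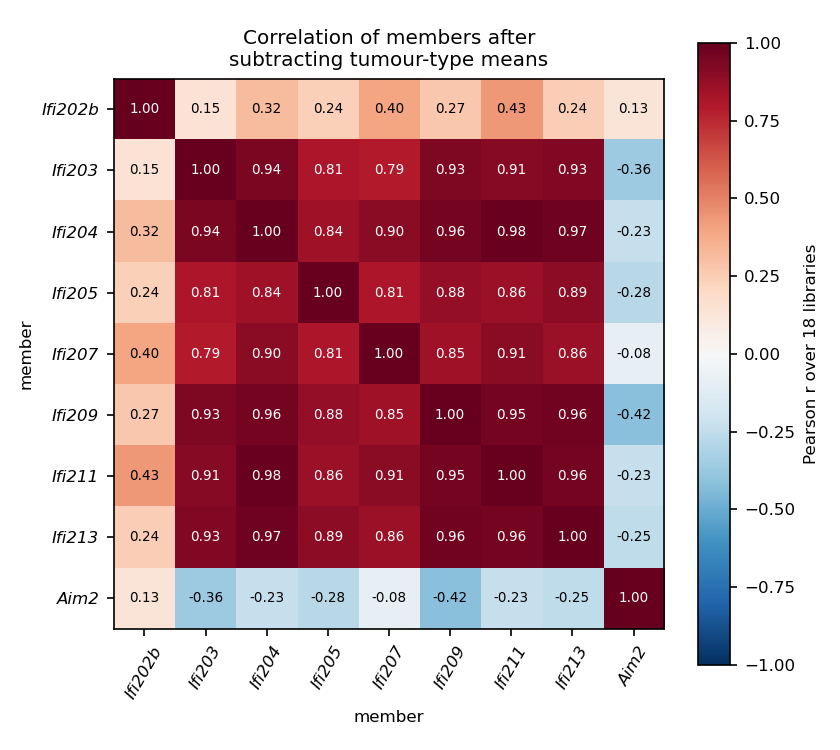
Pearson's r between members over 18 libraries after subtracting tumour-type means (colour and printed values; both axes list the 9 members). The block from Ifi203 to Ifi213 lies between 0.791 and 0.985, and the row of Aim2 between -0.421 and 0.132.

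Ratios of TPM to Ifi204 were read on the linear scale. In LL2, Ifi204 varied 3.27-fold and Ifi211 2.62-fold between the lowest and highest library, while the ratio of Ifi211 to Ifi204 stayed between 1.27 and 1.58. That ratio was 0.439 to 0.493 in CT26 and 0.418 to 0.455 in CT26NYESO1, so the LL2 range lay apart from both. Ifi211 shares words with Ifi204, as given above. In CT26NYESO1 the ratio to Ifi204 varied more than the TPM for Ifi203 (1.36-fold against 1.23-fold) and Ifi205 (1.86-fold against 1.47-fold). The ratio of Aim2 to Ifi204 ran from 0.472 to 1.62 in LL2, a 3.44-fold range. The ratio of Ifi202b to Ifi204 was 1.36 to 1.48 in CT26 and 1.27 to 1.56 in CT26NYESO1.

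The genes outside the 9 whose centred values were most like each member are given with their r. They were Rtp4 and Xaf1 for Ifi204 (r = 0.985 each), Oas3 for Ifi211 (0.987), Cmpk2 for Ifi213 (0.968), Slfn5 for Ifi205 (0.944), Trim30a for Ifi207 (0.936) and Ms4a4c, also 1 of the 5 monocyte markers, for Ifi209 (0.959). For Ifi203 it was the overlapping Mndal (0.976), followed by Ifit3 and Ifit1 (0.964 each). Second for Ifi205 was Ly6c2 (0.911), another of the 5 monocyte markers. The best matches were weaker for Ifi202b, with Ms4a4d (0.814) and Eomes (0.813), and for Aim2, with Zfp141 (0.825), Plekha6 (0.814) and Ak5 (0.806). These likenesses were taken over 18 libraries and are the highest of all tested genes, so high values arise by selection.

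The wider pathway was read from gene lists. Of 19 type I interferon-stimulated genes, 19 had differences below 0 in CT26 and in LL2 and 18 in CT26NYESO1, with medians of -0.40, -1.07 and -0.27, and 0 were called. The share of all genes called was 0.0% in CT26, 0.0178% in LL2 and 0.666% in CT26NYESO1. Ifit1, an interferon-induced RNA-binding antiviral protein gene, measured 143, 164 and 122 TPM in CT26 controls and 109, 125 and 100 TPM after OK-432. In LL2 it measured 13.8, 49.7 and 35.7 TPM in controls against 9.37, 21.7 and 5.17 TPM. Unadjusted p-values under 0.05, from the spread shared by the 6 groups, were held by 18 of the 19 in LL2 and by 0 in each CT26 line. Over all genes, 2.95% in LL2, 1.94% in CT26 and 9.57% in CT26NYESO1 had such a p and a value below 0. In CT26, 12 of the 19 were lower in all treated libraries than in all controls (5.1% of all genes). That number was 1 in CT26NYESO1 (9.84%) and 0 in LL2 (5.17%). The medians of all tested genes were within 0.03 of 0 in each case.

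Upstream genes were read in the same way. Of 9 tested genes of the cGAS-STING pathway, which senses cytosolic DNA through the enzyme cGAS, 0 were called in any line, with medians of -0.09 in CT26, -0.18 in CT26NYESO1 and -0.30 in LL2. Cgas measured 25.1, 31.2 and 25.7 TPM in CT26 controls and 24.7, 24.2 and 27.6 TPM after OK-432, and 2.28, 3.60 and 2.64 TPM against 1.10, 1.68 and 1.69 TPM in LL2. Of 16 tested interferon, receptor and signalling genes, 0 were called. Ifnb1, a type I interferon gene named after its values were seen, lay between 0 and 0.567 TPM in all 18 libraries. Of 15 interferon-gamma-induced genes, 14 had differences below 0 in each line and 0 were called. Unadjusted p-values under 0.05 were held by 0, 2 and 4 of the cGAS-STING genes, by 0, 0 and 7 of the signalling genes, and by 0, 1 and 4 of the interferon-gamma-induced genes, in CT26, CT26NYESO1 and LL2. These counts take both directions. For values below 0 alone, the share of all genes was 1.94%, 9.57% and 2.95% in the same order. Of all genes, 0.0%, 0.666% and 0.0178% were called in these lines.

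Among 8 partners and outputs of the AIM2 inflammasome, 1 gene was called, beside 0.666% of all genes in CT26NYESO1 and 0.172% on average. It was Il1b, which encodes interleukin-1 beta. It rose in CT26NYESO1 by 2.90 (SE 0.426, adjusted p = 0.0148), from 13.6, 16.1 and 23.2 TPM to 226, 56.4 and 191 TPM, and on average over the lines by 1.57 (SE 0.246, adjusted p = 0.0191). The call in CT26NYESO1 was lost in a limma fit of its own groups alone (adjusted p = 0.347), without CT26NYESO1 control replicate 1 (2.74, adjusted p = 0.061) or 2 (2.85, adjusted p = 0.0602), and without treated replicate 3 (2.65, adjusted p = 0.11). The average call of Il1b was lost in 7 of 18 refits that left out 1 library, with adjusted p values of 0.0515 to 0.0605 there. Pycard, the ASC adaptor, measured 3.91, 4.88 and 4.66 TPM in CT26 controls and 4.14, 5.65 and 4.25 TPM after OK-432. In the same CT26NYESO1 tumours Aim2 lay at 32.0 to 36.8 TPM with OK-432 and 32.9 to 39.0 TPM without it.

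Cell markers were read beside these values. The 7 neutrophil markers summed to 26.8 to 32.7 TPM in CT26 controls and 101 to 178 TPM after OK-432, to 11.0 to 17.3 against 81.7 to 688 TPM in CT26NYESO1, and to 20 to 33.8 against 133 to 218 TPM in LL2. S100a8 and S100a9, which encode the neutrophil protein calprotectin, rose on average by 3.39 (adjusted p = 0.00103) and 4.02 (adjusted p = 0.000489). The 5 monocyte markers summed to 1150 to 1210 TPM in CT26 controls and 946 to 1120 TPM in treated tumours, and to 123 to 259 against 77.9 to 132 TPM in LL2. In CT26NYESO1 that sum was 330 to 500 against 341 to 409 TPM. The summed levels of the 9 macrophage markers overlapped between controls and treated tumours, at 2810 to 3180 against 2910 to 3410 TPM in CT26, 2460 to 3330 against 1800 to 2960 TPM in CT26NYESO1 and 1400 to 1650 against 1350 to 1570 TPM in LL2. Taken singly, 2 macrophage markers in CT26 (5.1% of all genes) and 1 in LL2 (5.17%) were lower in all treated libraries than in all controls. In CT26NYESO1 all 9 differences were below 0 (median -0.27) and 0 were called (0.666% of all genes). Of these 9, 2 had an unadjusted p under 0.05, as had 9.57% of all genes with a value below 0. No marker of the neutrophil, monocyte and macrophage lists was at 0 throughout a group. The part of these cells in the p200 values was not tested.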

How the data were processed

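Transcript abundance was measured in 18 tumour libraries. The authors deposited 1 table of TPM values per gene and library; each library sums to 1000000, so depth is unknown and no counting interval is given. RNA was taken with TRIzol and sequenced from stranded mRNA libraries, per the labels' protocols. Trim Galore 0.6.5, STAR 2.7.3a, StringTie 2.1.2 and mm10 are named in the submitters' processing notes. No source used here gives the annotation or strand setting. TPM is a share of the library, so abundant genes that change move all other values.

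Values were analysed as log2(TPM + 1). Genes with at least 1 TPM in at least 3 libraries were tested (16816 genes, including the 9 members). In R 4.3.3, limma 3.58.1 fitted 6 group means by trended, robust empirical Bayes with 12 residual degrees of freedom and no covariate; the same fit gave 10 comparisons, each adjusted by Benjamini-Hochberg, with calls at an adjusted p under 0.05. Comparisons that use the same controls share those libraries. The fit and the motif search were tested on simulated data. Positions and shared 50-base words are from GENCODE M21. Alternatives were pseudocounts of 0.1 and 5, no filter, a filter at 5 TPM, median-of-ratios rescaling, quantile normalization, plain empirical Bayes, fits of the compared groups alone, a replicate block and leaving out each library. The members and lists were chosen with earlier results of these data known. Genes named are all 9 members, up to 4 called genes of each list described or otherwise its first listed gene with a mean of at least 1 TPM, and up to 3 of the genes most like each member by correlation.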

Additional observations from a re-analysis of the deposited data

How the results depend on the processing

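Results were recomputed under 9 other settings and without each of the 18 libraries in turn. For single members, 1555 of 1637 recomputed values kept their direction and their side of the threshold. No member was called for OK-432 in CT26 or CT26NYESO1, or between the effects of 2 lines, in any recomputation. Of the 5 members lower in CT26NYESO1 than in CT26 controls, 3 were called with no filter (more genes tested), 2 with median-of-ratios rescaling and 3 with quantile normalization, 4 with a pseudocount of 5, 6 with 0.1 and 7 in a fit of the compared groups alone, and 3 to 6 when 1 library was left out. The lowest count came without CT26 control replicate 2 and without CT26NYESO1 control replicate 2, where Ifi205 and Ifi209 lost their call. Members called lower with OK-432 in LL2 numbered 0 to 2, and on average 0 to 1, when 1 library was left out, the upper counts without LL2 control replicate 1. Members higher in LL2 than in CT26 controls numbered 1 to 2, the 2 without the same library. For these changes the cause was not tested.

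Samples that share a replicate number were not shown to be paired. The correlations of their deviations from the group means, across genes, lay between -0.122 and 0.219, and not every library correlated best with its own number. With a replicate block, which left 6 residual degrees of freedom, 3 members were called lower in LL2 (Ifi204, Ifi209 and Ifi213) and 5 on average (Ifi204, Ifi207, Ifi209, Ifi211 and Ifi213). The share of all genes called with this block is not given here, so these counts cannot be read as particular to the family. The other counts for OK-432, and those for differences between effects, stayed at 0 under the block. Il1b was not called under it in CT26NYESO1 (adjusted p = 0.0544) or on average (adjusted p = 0.0507).

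Direction changed in 30 of the recomputed values of single members, all of them differences that were not called (adjusted p at least 0.244). Ifi209 in LL2 against CT26 controls gave 0.010 with a pseudocount of 5, 0.088 after rescaling and 0.22 with quantile normalization, and -0.31 to 0.35 when 1 library was left out. Ifi203 in CT26NYESO1 against CT26 controls gave 0.062 and 0.048 under the 2 scalings. The average effect for Aim2 gave 0.0094 and 0.012 under them, and -0.024 to 0.017 when 1 library was left out. Ifi202b with OK-432 in CT26NYESO1 gave 0.012 with quantile normalization and -0.16 to 0.056 when 1 library was left out. Leaving out 1 library also gave -0.074 to 0.031 for Aim2 in CT26, -0.11 to 0.0097 for Aim2 and -0.16 to 0.063 for Ifi209 in CT26NYESO1, -0.031 to 0.61 for Ifi205 in LL2 against CT26 controls, and -0.077 to 0.49 for Ifi211 in LL2 against CT26NYESO1 controls. Depth cannot be read from TPM, so its effect on low members such as Ifi213 is unknown. In fits of the compared groups alone, Ifi213 was below the filter without LL2, and Ifi202b within LL2, so these have no value there.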
